A study of Bos taurus with 16 samples.

Results

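The genes described are 10 amino acid transporters of the cell surface, read out of 34109 genes in the count and TPM tables by matching the NCBI gene ID of each row to its symbol. They are SLC1A5, SLC1A4, SLC3A2, SLC7A5, SLC7A8, SLC38A1, SLC38A2, SLC38A4, SLC7A1 and SLC6A6. SLC1A5 was chosen by its measured counts, which differed between the diets in round muscle, and the study named it as a gene that separates its groups. Its values in that contrast, and in the diet by muscle contrast that contains it, are therefore given as a description with no test. The other 9 genes were taken as its relatives in function.

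RNA was sequenced from round muscle, which lies in the hind leg, and from sirloin muscle of 8 male Hanwoo calves killed at birth before they took colostrum. As examples of sirloin muscles the study names the gluteus medius and the psoas major. Hanwoo is the Korean native beef breed. Control dams (4 calves) were fed at a nominal 100% of their requirement, and treated dams (4 calves) at a nominal 150% from mid pregnancy to calving on the same rice straw and concentrate. By the study's methods, control intake was set above the figures of the feeding standard, and concentrate was raised by a larger share than straw. No calf was itself given a treatment, all calves were sampled at birth, and concentrate and straw were raised together, so that protein and energy supply cannot be told apart. Both muscles of a calf were sequenced, which gave 4 groups of 4 libraries, and a calf is named here by its diet and its replicate number, which holds for both of its muscles. The 16 libraries held 44473011 to 72446933 counts in round and 44863173 to 72165291 counts in sirloin muscle. Each of the 10 genes had counts in every library, from 29 to 79262.

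Muscle fibres cannot make several of the amino acids that protein synthesis needs, so these must enter through carrier proteins. SLC1A5 exchanges glutamine and other small neutral amino acids across the membrane, and SLC38A1, SLC38A2 and SLC38A4 bring in small neutral amino acids together with sodium. SLC3A2 is a heavy chain that carries light chains such as SLC7A5 and SLC7A8 to the cell surface, where the pair exchanges glutamine for leucine and other large neutral amino acids. SLC7A1 takes up the cationic amino acids arginine and lysine, and SLC6A6 takes up taurine. Leucine and arginine inside the cell activate mTORC1, the kinase complex that promotes protein synthesis, while a shortage of amino acids raises ATF4, a transcription factor that turns on several of these transporters.

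The tissue carried its defining markers. All 9 skeletal muscle markers were above 0.1 TPM in every library, and their summed level was 56800 to 94200 TPM in round and 61300 to 103000 TPM in sirloin muscle. The sirloin library of treated calf 4 stood apart, with a summed level of the 5 adipocyte markers of 3780 TPM against 0.73 to 15 TPM in the other 15 libraries. The round library of control calf 2 held 1470 TPM of the 5 fibroblast markers against 148 to 613 TPM elsewhere. The summed red blood cell markers were 4.13 to 19.8 TPM in control and 18.2 to 38.5 TPM in treated round muscle, and 4.04 to 15.4 TPM in control and 14.2 to 41.4 TPM in treated sirloin muscle. The 5 macrophage markers summed to 4.62 to 29.5 TPM over the 16 libraries, with the highest sums of both muscles in treated calf 2, and the 5 T cell markers summed to 0.391 to 3.66 TPM. The part of these cells in any difference below was not tested. In bulk tissue, fewer cells of a type and less RNA per cell cannot be told apart.

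Levels of different genes were compared in TPM, which scales reads to gene length and library size. In round muscle, SLC38A2 had the highest mean level at 126 ± 30.9 TPM (SD, n = 8 calves), followed by SLC3A2 at 118 ± 33.8 TPM and SLC7A8 at 69.2 ± 58.4 TPM. SLC7A1 (16.4 ± 5.75 TPM) and SLC1A5 (14.2 ± 7.27 TPM) stood in the middle. SLC38A1 (7.91 ± 4.79 TPM), SLC38A4 (7.44 ± 4.67 TPM) and SLC1A4 (5.71 ± 3.08 TPM) came next, and SLC7A5 (1.92 ± 1.41 TPM) and SLC6A6 (0.489 ± 0.416 TPM) were the lowest. SLC38A2 was above SLC3A2 in 4 of 8 round libraries, SLC7A1 above SLC1A5 in 4, and SLC38A1 above SLC38A4 in 3, so these neighbours in the order did not differ beyond their spread.

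In sirloin muscle, SLC7A8 came first at 249 ± 252 TPM (SD, n = 8), with 8 calves spread from 39.3 to 752 TPM. SLC3A2 followed at 108 ± 31.4 TPM and SLC38A2 at 87.2 ± 23.5 TPM. SLC7A8 was above SLC3A2 in 4 of 8 sirloin libraries and SLC3A2 above SLC38A2 in 4, which placed these 3 genes together within their spread. SLC7A1 (12 ± 4.12 TPM), SLC1A5 (9.97 ± 4.03 TPM), SLC38A4 (7.2 ± 5.98 TPM) and SLC38A1 (6.25 ± 4.98 TPM) followed. SLC1A4 (1.85 ± 1.33 TPM), SLC7A5 (0.474 ± 0.232 TPM) and SLC6A6 (0.335 ± 0.24 TPM) were again the lowest. Of the summed level of the 10 genes in round muscle, SLC38A2 made up 34.9% and SLC3A2 33.0% on average, while in sirloin muscle SLC7A8 made up 41.4%.

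**Figure D1:**
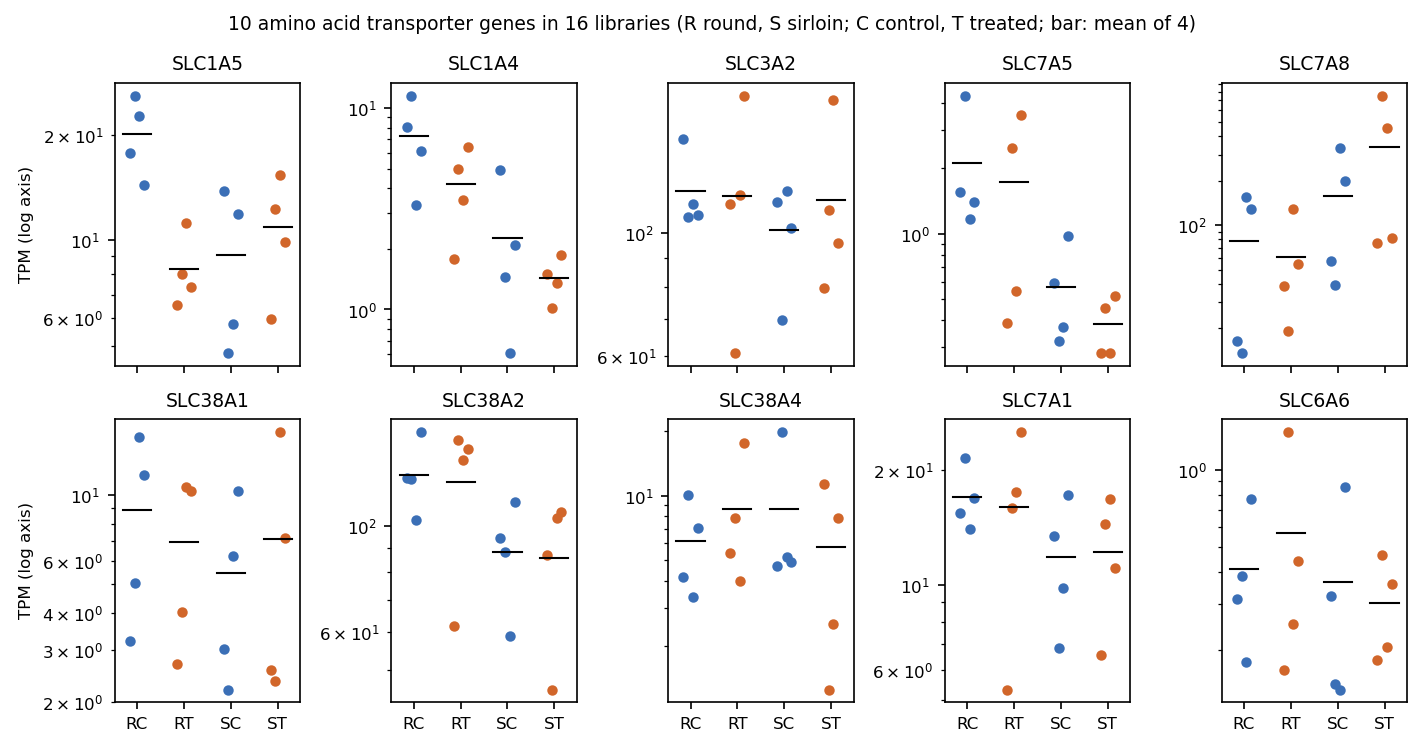
Level of each of the 10 transporter genes in TPM (log axes) in 16 libraries, with round control (RC), round treated (RT), sirloin control (SC) and sirloin treated (ST) along the horizontal axis. Points are libraries and bars are means of 4. The diets of SLC1A5 in round muscle are the only ones that do not overlap, and SLC7A8 spreads from 13.5 to 752 TPM.

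SLC1A5, the glutamine exchanger, stood at 17.7, 25.8, 22.6 and 14.4 TPM in the round muscle of control calves 1 to 4 (20.1 ± 5.06, SD, n = 4). In the round muscle of treated calves 1 to 4 it stood at 6.52, 8.0, 11.2 and 7.38 TPM (8.27 ± 2.04). Every treated calf was below every control calf. The count fit gave a log2 difference, treated over control, of -1.36 with a standard error of 0.25, which is 2.57 times as much in control as in treated calves. This difference is what brought SLC1A5 into the comparison. Leaving out 1 calf at a time gave log2 differences of -1.56 to -1.28.

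In sirloin muscle the same gene showed no such order. Control calves 1 to 4 had 13.8, 4.76, 5.79 and 11.9 TPM (9.04 ± 4.44, SD, n = 4), and treated calves 1 to 4 had 5.98, 12.3, 15.4 and 9.89 TPM (10.9 ± 3.98). The highest and the second highest sirloin values belonged to treated calf 3 and control calf 1, and the groups overlapped over most of their range. The log2 difference of SLC1A5 between the diets in sirloin muscle was 0.0718 (SE 0.4, edgeR adjusted p = 1.0), and leaving out 1 calf gave -0.16 to 0.41. Without the sirloin library rich in adipocyte markers, it was 0.12.

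Within calves, SLC1A5 was higher in round than in sirloin muscle in 4 of 4 control calves and 1 of 4 treated calves. On the log2 TPM scale, round minus sirloin was 0.36, 2.41, 1.95 and 0.28 in control calves 1 to 4, and 0.12, -0.61, -0.46 and -0.42 in treated calves 1 to 4. Control calves 2 and 3 had the lowest sirloin and the highest round levels of the 8 calves. The diet difference in round minus that in sirloin was -1.45 (SE 0.49) on the log2 scale, and -1.15 without control calf 2. No gene of 22877 passed the test of this contrast over all genes in edgeR (background 0.0%), and 637 genes (2.78%) had an unadjusted p under 0.05. DESeq2 and limma-voom called 0 genes as well. With the calf as a block, edgeR called 1 gene, none of the 10 (0.00437%), and 865 genes (3.78%) had an unadjusted p under 0.05.

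**Figure D2:**
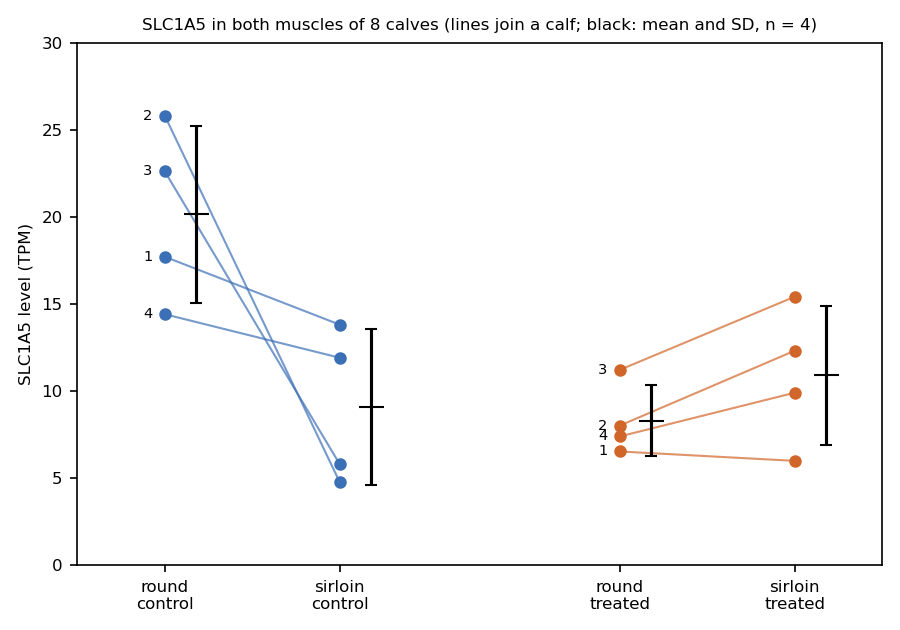
SLC1A5 in TPM in the round and sirloin muscle of 4 control calves (blue) and 4 treated calves (orange), with a line joining the muscles of a calf, replicate numbers beside the round points, and black bars for the mean and SD (n = 4). Round levels are 14.4 to 25.8 TPM in control and 6.52 to 11.2 TPM in treated calves, and all 4 control lines descend while 1 of 4 treated lines does.

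The other transporters did not separate the diets in round muscle. Among the 9 genes besides SLC1A5, 0 passed an adjusted p of 0.05 in edgeR, where 0.0185% of 21677 genes tested did, and 0 had an unadjusted p under 0.05, where 4.41% did. DESeq2 and limma-voom called 0 of the 9, with 0.208% and 0.00461% of all genes called. In CPM, counts scaled to library size, the diets overlapped for all 9, and 1.76% of all genes had diets that did not overlap. SLC1A5 was chosen by this contrast and is not set against these shares. Among the 9, log2 differences were above 0 for SLC38A4 and SLC6A6 and below 0 for the rest. Over all genes tested, 10416 of 21677 were below 0.

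SLC1A4, the closest relative of SLC1A5 and a carrier of alanine, serine and cysteine, had 8.03, 11.5, 3.3 and 6.1 TPM in the round muscle of control calves 1 to 4 (7.24 ± 3.45, SD, n = 4). Treated calves 1 to 4 had 1.79, 4.98, 3.51 and 6.43 TPM (4.18 ± 1.99). Control calf 3 and treated calf 4 made the groups overlap. The log2 difference of SLC1A4 was -0.87 (SE 0.41, edgeR adjusted p = 0.864) in round and -0.86 (SE 0.55, adjusted p = 0.876) in sirloin muscle, where control calves had 4.93, 1.45, 0.605 and 2.08 TPM and treated calves 1.5, 1.02, 1.36 and 1.87 TPM. In sirloin muscle, control calf 1 was the highest by a wide margin, and without it the difference was -0.0622.

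The 3 sodium-coupled carriers overlapped between the diets in round muscle. SLC38A2, which muscle induces when amino acids run short, had 126, 125, 103 and 157 TPM in control calves 1 to 4 and 61.8, 151, 137 and 145 TPM in treated calves 1 to 4. Treated calf 1 was the lowest of the 8 and the others lay within the control range. The log2 difference of SLC38A2 was -0.16 (SE 0.3, edgeR adjusted p = 0.975). SLC38A1, a glutamine carrier, ranged from 3.21 to 15.7 TPM in control and from 2.69 to 10.6 TPM in treated calves (log2 difference -0.46, SE 0.55, adjusted p = 0.938). SLC38A4, which is abundant in fetal tissues and placenta, ranged from 3.37 to 10.1 TPM and from 4.01 to 17.5 TPM (log2 difference 0.45, SE 0.46, adjusted p = 0.916).

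Heavy and light chains overlapped between the diets too. SLC3A2 had 148, 107, 113 and 108 TPM in control and 113, 60.6, 117 and 177 TPM in treated round muscle, with treated calves both the lowest and the highest of the 8 (log2 difference -0.11, SE 0.33, edgeR adjusted p = 0.99). SLC7A5, the leucine exchanger of growing cells, had 1.55, 4.32, 1.17 and 1.4 TPM in control and 0.385, 2.48, 0.541 and 3.52 TPM in treated calves (log2 difference -0.34, SE 0.64, adjusted p = 0.978). Treated calves 1 and 3 were below every control calf, and treated calves 2 and 4 were above 3 of the 4. The arginine carrier SLC7A1 had 15.4, 21.4, 14 and 16.9 TPM in control and 5.33, 15.9, 17.5 and 25.1 TPM in treated calves (log2 difference -0.19, SE 0.38, adjusted p = 0.981). The taurine carrier SLC6A6 had 0.179 to 0.768 TPM in control and 0.167 to 1.4 TPM in treated calves (log2 difference 0.25, SE 0.64, adjusted p = 0.987).

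In sirloin muscle, 0 of 10 genes passed the edgeR test against a background of 0.00918% of 21776 genes, 0 had an unadjusted p under 0.05 against 3.91%, while DESeq2 and limma-voom called 0 of 10 against 0.0597% and 0.0%. No transporter had diets that did not overlap in CPM, against 1.68% of all genes. The largest log2 difference in size among the 10 was that of SLC7A8 at 0.91 (SE 0.81, edgeR adjusted p = 0.906), followed by SLC1A4, then SLC7A5 at -0.73 (SE 0.45, adjusted p = 0.876) and SLC38A4 at -0.73 (SE 0.68, adjusted p = 0.91). The values of SLC7A8 were 56.7, 39.3, 332 and 199 TPM in control and 75.3, 752, 453 and 81.4 TPM in treated sirloin muscle. Treated calves 2 and 3 were the highest, and treated calves 1 and 4 lay below control calves 3 and 4. Without treated calf 2 the log2 difference of SLC7A8 was 0.21, without control calf 2 it was 0.6, and without control calf 3 it was 1.63. The other 5 of the 10 genes besides SLC1A5 and these had log2 differences from -0.43 for SLC6A6 to 0.23 for SLC38A1.

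Several of the 10 genes went the same way between the muscles in every calf. SLC1A4 and SLC7A5 were higher in round and SLC7A8 was lower in round muscle in all 8 calves, both in CPM and in TPM. SLC6A6 was higher in round in 8 of 8 calves in CPM, with 29 to 214 counts a library, but in 5 of 8 in TPM. With SLC6A6, 4 of 10 genes went the same way in all 8 calves in CPM, against 2.5% of 22877 genes. In edgeR over 4 groups, without the calf in the model, 0 of 10 passed the adjusted threshold against 0.0612% of genes, and 4 of 10 had an unadjusted p under 0.05 against 6.33%. With the calf as a block, which uses that both muscles came from 1 animal, 2 of 10 passed against 0.476% of genes and 8 of 10 had an unadjusted p under 0.05 against 11.2%. DESeq2 without the block called the same 2 genes, SLC1A4 and SLC7A5, against 0.367% of genes, and limma-voom called 0 of 10 against 0.0918%. The median log2 difference of the 10 genes, round over sirloin, was 0.49 beside 0.00422 over all genes tested.

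The calls for SLC1A4 depended on the model. From the values given above, each calf's round level was above its own sirloin value, by a log2 TPM difference of 0.24 in treated calf 1 to 2.9 in control calf 2. The log2 difference of SLC1A4 was 1.65 (SE 0.37), or 3.14 times as much in round as in sirloin muscle, with an edgeR adjusted p of 0.204. With the calf as a block it was 1.75 (SE 0.26, adjusted p = 0.012), and DESeq2 gave an adjusted p of 0.00453. Without control calf 1 and without the block, SLC1A4 passed in edgeR as well (log2 difference 2.01, adjusted p = 0.0345), and the adjusted p without any 1 calf ranged from 0.0345 to 0.602.

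SLC7A5 was likewise higher in round muscle, at a lower level. Beside the round values given above, its sirloin values were 0.589, 0.32, 0.372 and 0.977 TPM in control and 0.282, 0.456, 0.28 and 0.513 TPM in treated calves. Control calf 2 and treated calves 2 and 4 had the highest round values, and no sirloin value reached 1 TPM. The log2 difference of SLC7A5 was 2.08 (SE 0.44), or 4.22 times as much in round muscle, with an edgeR adjusted p of 0.132. With the calf as a block it was 1.82 (SE 0.34, adjusted p = 0.0446), and DESeq2 gave an adjusted p of 0.000667. Without control calf 2, whose round library was rich in fibroblast markers, the unblocked difference was 1.73 with an adjusted p of 0.549, and the part of those cells in it was not tested.

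SLC7A8, the other light chain, went the opposite way, with a log2 difference of -1.63 (SE 0.65), or 3.09 times as much in sirloin as in round muscle. It passed neither fit (edgeR adjusted p = 0.736, and 0.147 with the calf as a block, where the difference was -1.53 with an SE of 0.42). Its round values were 16.3, 13.5, 154 and 129 TPM in control and 38.6, 19.3, 129 and 54.5 TPM in treated calves, and each was below the sirloin value of the same calf given above. Treated calf 2 had the widest gap, a log2 TPM difference of -5.28, and the other 7 calves had -1.81 to -0.58. The sirloin library with the highest SLC7A8, that of treated calf 2, held 0.73 TPM of adipocyte markers, and the library rich in those markers held 81.4 TPM of SLC7A8. The 5 macrophage markers summed to 29.5 TPM in the library with the highest SLC7A8, the highest sum of the 16. The round library of the same calf had the second highest sum, 23.9 TPM, with SLC7A8 at 19.3 TPM. The part of these cells in the SLC7A8 levels was not tested.

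The remaining transporters differed less between the muscles. SLC38A2 was higher in round in 7 of 8 calves, with a log2 difference of 0.6 (SE 0.22, edgeR adjusted p = 0.695 and 0.19 with the block). SLC38A1 (0.44, SE 0.47) was higher in round in 7 of 8 calves, and SLC7A1 (0.55, SE 0.28) in 7 of 8 in CPM and 6 of 8 in TPM. SLC1A5 (0.44, SE 0.24, adjusted p = 0.837) and SLC3A2 (0.23, SE 0.23, adjusted p = 1.0) were each higher in round in 5 of 8, and SLC38A4 (0.14, SE 0.45, adjusted p = 1.0) in 4 of 8 calves.

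**Figure D3:**
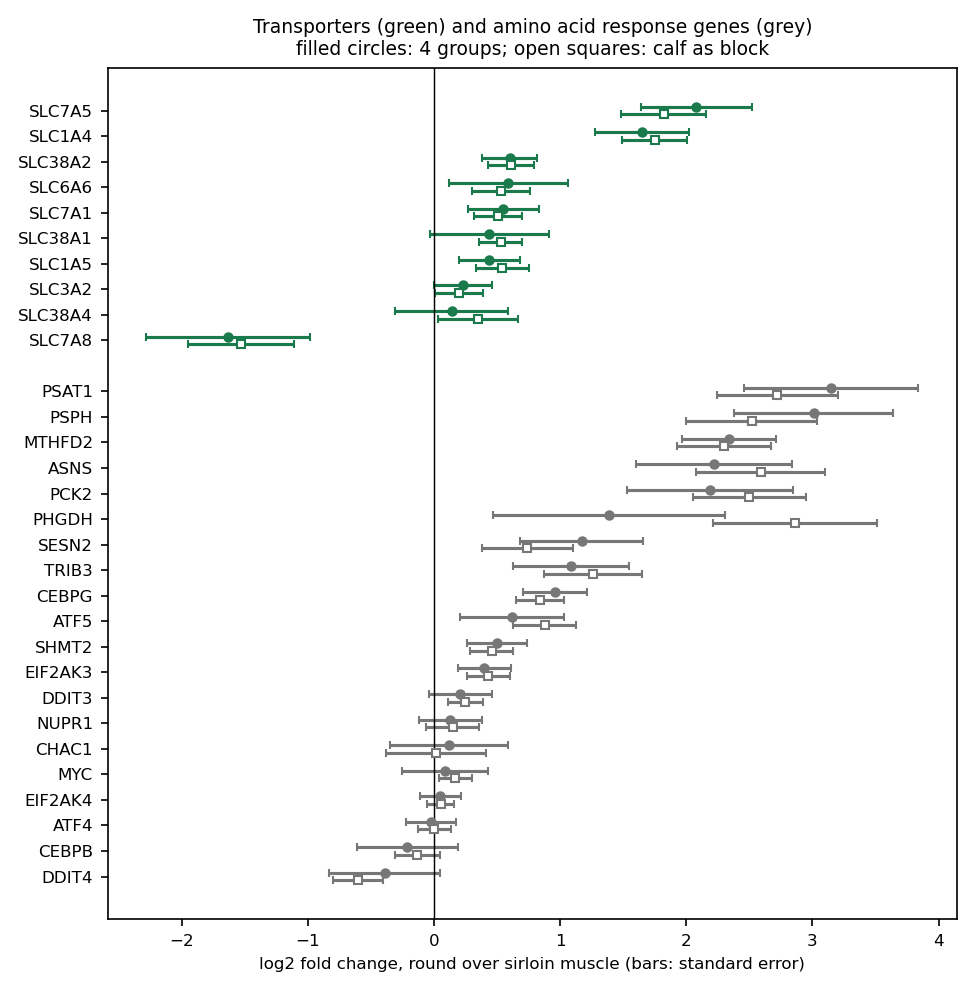
Log2 fold change of round over sirloin muscle (horizontal axis) for the 10 transporters (green) and the 20 amino acid response genes (grey), with standard errors as bars, filled circles from the fit of 4 groups and open squares from the fit with the calf as a block. SLC7A5 (2.08) and SLC1A4 (1.65) lie far to the right and SLC7A8 (-1.63) to the left, and the 5 leading response genes lie above 2.

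The heavy chain was set against its light chains as a description, with no test. The summed level of 6 genes for light chains that pair with SLC3A2 (SLC7A5, SLC7A6, SLC7A7, SLC7A8, SLC7A10 and SLC7A11) exceeded that of SLC3A2 in 3 of 8 round and 6 of 8 sirloin libraries. In round muscle SLC3A2 over the summed light chains was 0.623 to 4.29 in control and 0.798 to 2.34 in treated calves. In sirloin muscle it was 0.346 to 1.6 in control and 0.141 to 0.985 in treated calves. SLC7A8 made up 41.1% to 88.1% of the summed light chains in round and 79.8% to 96.6% in sirloin muscle. These are ratios of transcripts, and the chains at the membrane were not measured. SLC7A8 exceeded SLC7A5 in every library, by a TPM ratio of 3.14 in the round muscle of control calf 2 to 1650 in the sirloin muscle of treated calf 2.

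**Figure D4:**
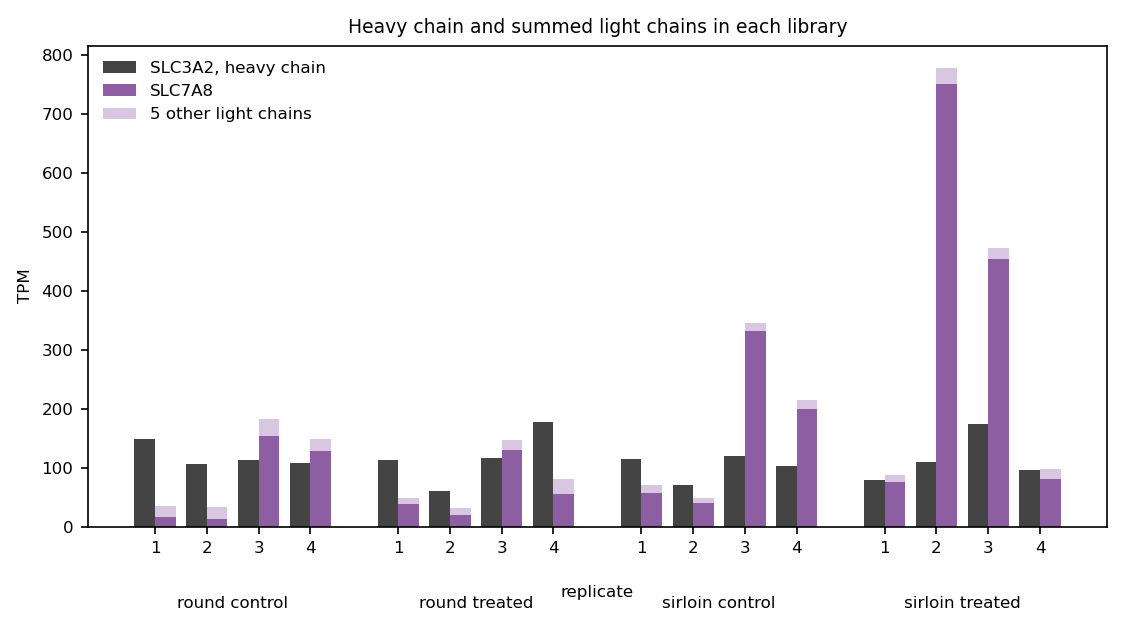
Level in TPM of the heavy chain SLC3A2 (dark bars) beside the stacked levels of SLC7A8 (purple) and 5 other light chains (pale) in each of 16 libraries, by group and replicate. SLC3A2 stays between 60.6 and 177 TPM while the light chains range from 32.2 to 778 TPM, and the tallest stack is the sirloin muscle of treated calf 2.

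Some calves were high or low in several transporters. Control calves 3 and 4 and treated calf 3 had the 3 highest round levels of SLC7A8 (129 to 154 TPM), and these calves with treated calf 4 had the 4 highest round levels of SLC38A1 (10.3 to 15.7 TPM against 2.69 to 5.04 TPM). Over the 8 calves, the round and sirloin levels of SLC38A1 gave Pearson's r = 0.843 (exact permutation p = 0.0217, adjusted p = 0.108 over 9 genes) and Spearman's rho = 0.714 (exact permutation p = 0.0576, adjusted p = 0.173). SLC6A6 gave r = 0.803 (exact permutation p = 0.024, adjusted p = 0.108) and rho = 0.786 (exact permutation p = 0.0279, adjusted p = 0.126). Neither passed the adjusted threshold, and the other 7 genes tested had r from 0.203 to 0.529. Among these, SLC38A2 had the highest rho of all 9, at 0.81 (exact permutation p = 0.0218, adjusted p = 0.126), with r = 0.23. Without the 2 calves farthest from the median in round muscle, r was 0.899 for SLC38A1 and 0.66 for SLC6A6. With the diet means removed it was 0.867 and 0.808. SLC1A5 was left out because its diets did not overlap in round muscle. The r of SLC7A8 was 0.474, and 0.159 without the 2 calves farthest from the median in round muscle. Leaving out 1 calf gave 0.278 to 0.926 for SLC7A8. The highest of these was without treated calf 2 (adjusted exact permutation p = 0.0286).

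Covariation among the transporters was described on log2 CPM after the 4 group means were removed, over 16 libraries that come from 8 calves. The 45 pairs had a median r of 0.313, and 32 were above 0. The highest were SLC6A6 with SLC7A5 (0.673), SLC7A1 with SLC7A5 (0.667), SLC38A2 with SLC1A4 (0.658), SLC7A1 with SLC1A5 (0.643) and SLC7A5 with SLC1A4 (0.628). SLC38A4 lay apart, with -0.623 against SLC7A8 and -0.611 against SLC1A5. SLC38A4, SLC38A2 and SLC38A1 are consecutive protein-coding genes in the RefSeq gene table, and none of the other 7 genes had another of the 10 within 3 genes. Of these neighbours, SLC38A2 gave 0.488 with SLC38A1 and 0.429 with SLC38A4, and SLC38A4 gave -0.131 with SLC38A1.

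**Figure D5:**
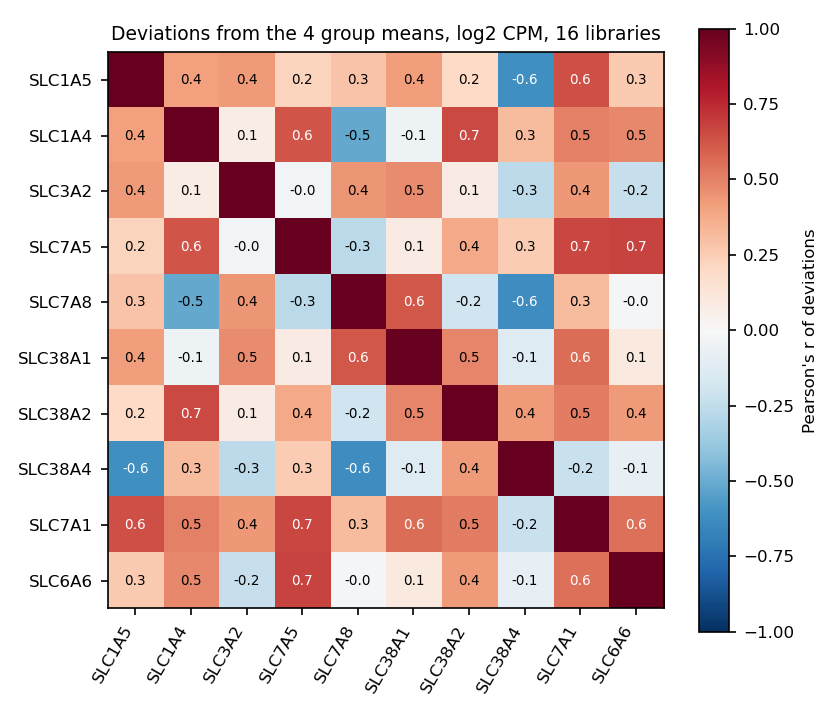
Pearson's r between the deviations of 10 transporters from the 4 group means on the log2 CPM scale, over 16 libraries of 8 calves, from blue (-1) through white (0) to red (1). Most squares are red, and the row of SLC38A4 is blue against SLC1A5 (-0.611) and SLC7A8 (-0.623).

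The genes most like SLC1A5 by the same measure, among 11400 named genes with a mean of at least 1 CPM, were CDYL2 (r = 0.877), CNN1 (0.854), PAQR3 (0.844), AMPD2 and ZYX (0.828, below AMPD2). Over all these genes r ran from -0.538 at the 5th to 0.551 at the 95th percentile. CDYL2 encodes a chromatin reader, CNN1 calponin of smooth muscle, PAQR3 a Golgi membrane protein, AMPD2 an AMP deaminase and ZYX zyxin of focal adhesions. CNN1 also had a log2 diet difference of -1.76 (SE 0.29, edgeR adjusted p = 0.196) in round muscle. DESeq2 called 1 of the 5 smooth muscle markers in that contrast, beside 0.208% of all genes, and edgeR and limma-voom called 0 of the 5. CNN1 alone of the 5 had an unadjusted p under 0.05 in edgeR. The study lists CNN1 as lower in treated round muscle by DESeq2 and by qPCR. The summed smooth muscle markers in round muscle were 162 to 278 TPM in control and 122 to 256 TPM in treated calves. The part of smooth muscle cells in the SLC1A5 levels was not tested. SLC7A1 was the nearest of the other 9 transporters to SLC1A5, and 1.77% of the genes were at least as like it. The median r of the 9 with SLC1A5 was 0.286. With the group means kept, so that the gap between the muscles enters, the median was 0.561 over the control and -0.0223 over the treated libraries. On this scale CDYL2 gave r = 0.0804 over the control and 0.904 over the treated libraries. CNN1, PAQR3, AMPD2 and ZYX gave 0.531 to 0.967 over the control and 0.562 to 0.778 over the treated libraries.

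Other plasma membrane transporters were tested in the same way. Of 35 further transporter genes, 29 were tested in round and 29 in sirloin muscle, and 0 passed the edgeR test of diet in either. LOC617141, annotated as similar to the cationic amino acid transporter 3, was named in the study and is given as a description. It had 0, 9, 4 and 0 counts in control and 60, 148, 311 and 7 counts in treated round muscle, and 0, 19, 9 and 4 counts in control and 77, 51, 157 and 12 counts in treated sirloin muscle. Treated calf 4 was the lowest treated calf in both muscles, with about the counts of the higher controls. Its level stayed at or below 2.08 TPM in every library, beside 5.33 to 25.1 TPM for SLC7A1 in round muscle.

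LOC617141, which the study lists as higher in treated round muscle, had an unadjusted p under 0.05 in both muscles. It is not set against the shares of all genes. Among the others of the 29, SLC1A2, SLC6A7 and SLC6A11 had an unadjusted p under 0.05 in round muscle, beside 4.41% of all genes. SLC1A2, a glutamate carrier, had a log2 difference of -1.95 (SE 0.65, edgeR adjusted p = 0.864) in round muscle, and -1.08 without control calf 4, the highest at 5.42 TPM. SLC6A7 and SLC6A11, carriers of proline and of GABA, rested on 0 to 13 and 0 to 56 counts a round library. In sirloin muscle the others of the 29 with an unadjusted p under 0.05, beside 3.91% of all genes, were SLC7A7 and SLC6A15. SLC7A7, a light chain for cationic amino acids, had a log2 difference of 1.06 (SE 0.41, edgeR adjusted p = 0.876). SLC6A15, a neutral amino acid carrier, rested on 0 to 22 counts a sirloin library. Of 14 organelle transporters tested, 1 in each muscle had an unadjusted p under 0.05. The lysosomal SLC38A7 had 0.83 (SE 0.38, edgeR adjusted p = 0.864) in round muscle, with 0.45 without treated calf 1, and SLC38A10 had 1.12 (SE 0.4, adjusted p = 0.876) in sirloin muscle, where 0.5 remained without treated calf 4, whose library was rich in adipocyte markers.

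Between the muscles, 0 of 30 further plasma membrane transporters tested passed in edgeR without the block, beside 0.0612% of all genes, and 2 passed with it, beside 0.476%. SLC6A9, a glycine carrier, was higher in round in 8 of 8 calves (log2 difference 1.99, SE 0.4, edgeR adjusted p = 0.115 and 0.0118 with the block). SLC43A1, a carrier of large neutral amino acids, was lower in round in 8 of 8 calves (-0.71, SE 0.24, adjusted p = 0.689 and 0.0137 with the block). The round values of SLC43A1 were 16.7, 13.4, 22.0 and 22.4 TPM in control and 18.4, 27.0, 33.0 and 15.1 TPM in treated calves, and the sirloin values 24.6, 16.1, 41.3 and 38.2 TPM and 35.6, 66.0, 54.8 and 28.9 TPM.

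Genes of the amino acid response were read beside the transporters. The list holds genes that ATF4 and its partners turn on when amino acids are short. It also holds ATF4 itself, the kinases EIF2AK4 and EIF2AK3, and MYC, so counts over it are not counts of ATF4 targets alone. Of the 20 listed genes tested between the muscles, 8 had an unadjusted p under 0.05 and were higher in round, and 0 were lower, while 6.33% of all genes had such a p in either direction. With the calf as a block, 11 of the 20 were higher and 1 was lower at that p, while 11.2% of all genes had it in either direction. The median log2 difference of the 20 without the block was 0.56, beside 0.00422 over all genes. In edgeR 1 of the 20 passed the adjusted threshold, beside 0.0612% of all genes. It was MTHFD2, a mitochondrial folate enzyme (log2 difference 2.34, SE 0.37, or 5.08 times as much in round muscle, adjusted p = 0.0128). Its round values were 4.67, 11.8, 15.7 and 9.86 TPM in control and 6.71, 7.81, 6.67 and 22.9 TPM in treated calves, and its sirloin values 1.83, 1.94, 0.636 and 1.44 TPM and 3.39, 1.39, 5.96 and 2.81 TPM. Each calf was higher in round muscle. The call was lost without control calf 3 (log2 difference 2.09, edgeR adjusted p = 0.0722) and without control calf 4 (2.33, adjusted p = 0.106), and held without any other calf.

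The serine synthesis enzymes PSAT1 and PSPH and the enzymes ASNS and PCK2 were also higher in round in 8 of 8 calves, and are named after their values were seen. Of all genes tested, 1.15% were higher in round in all 8 calves in CPM. PHGDH, another serine synthesis enzyme on the list, was higher in round in 7 of 8 calves. CEBPG was higher in 8 of 8 in CPM and 7 of 8 in TPM. The log2 differences of PSAT1, PSPH, ASNS and PCK2 were 3.15 (SE 0.69), 3.01 (SE 0.63), 2.22 (SE 0.62) and 2.19 (SE 0.66), and none passed in edgeR without the block. The block passed 3 of the 20, PSAT1 (adjusted p = 0.0349), PCK2 (adjusted p = 0.0399) and MTHFD2, beside 0.476% of all genes. DESeq2 passed 3 of the 20, PSAT1, PSPH and MTHFD2, beside 0.367% of all genes. Round treated calf 4 had the highest PSPH (73.3 TPM), PSAT1 (68.0 TPM) and ASNS (180 TPM) of all 16 libraries, and its SLC7A5 (3.52 TPM) was the second highest. ATF4 itself is among the 20 genes and passed in no muscle comparison, and it lies near 0 in the plot of muscle differences.

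Between the diets, 0 of the 20 response genes passed in either muscle in edgeR. In round muscle 4 of the 20 had an unadjusted p under 0.05, all with lower values in treated calves, beside 2.49% of all genes that were lower at this p. Among them is TRIB3, which the study lists as lower in treated round muscle from these same libraries. The count is therefore a description. TRIB3, an inhibitor of the response, had 0.633, 3.43, 1.16 and 1.34 TPM in control and 0.559, 0.191, 0.333 and 0.471 TPM in treated calves (log2 difference -2.07, SE 0.53, edgeR adjusted p = 0.864, DESeq2 adjusted p = 0.028). The groups did not overlap. DDIT3, a stress transcription factor, had 31.6, 25.0, 22.5 and 35.9 TPM against 10, 22.9, 12.6 and 12 TPM (-1.13, SE 0.3, edgeR adjusted p = 0.864). SESN2, a leucine sensor, had -2.49 (SE 0.81) with control calf 2 at 8.85 TPM and the others at or below 1.0 TPM, and -0.76 remained without that calf. EIF2AK3, the kinase of the endoplasmic reticulum stress arm, had -0.64 (SE 0.27, adjusted p = 0.864).

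In sirloin muscle, 2 of the 20 response genes had an unadjusted p under 0.05, beside 3.91% of all genes, and higher values in treated calves. They were SHMT2 with a log2 difference of 0.71 (SE 0.28, edgeR adjusted p = 0.876), or 0.46 without treated calf 4, and NUPR1 with 0.87 (SE 0.37, adjusted p = 0.876). In the difference between the muscles in the diet effect, 3 of the 20 had an unadjusted p under 0.05, beside 2.78% of all genes, and edgeR adjusted p = 1.0 for each. TRIB3, whose diet difference in round muscle enters this contrast, had -3.02 (SE 0.92). Without treated calf 4, whose sirloin library was rich in adipocyte markers and held 1.49 TPM of TRIB3, it was -1.94. SESN2 had -2.33 (SE 0.97), and -0.68 without control calf 2. CHAC1, a glutathione-degrading enzyme named after its value was seen, had -2.11 (SE 0.95), and -1.34 without control calf 2. Of 26 genes of mTORC1 amino acid sensing, 0 passed in any of the 4 comparisons, where at most 0.476% of all genes did. Between the muscles with the calf as a block, 7 of the 26 were lower in round at an unadjusted p under 0.05 and 0 were higher. Of all genes, 1273 of 22877 were lower at that p. RRAGC, a Rag GTPase that recruits mTORC1 to lysosomes, had -0.84 (SE 0.32, edgeR adjusted p = 0.864) between the diets in round muscle. Of 16 enzymes of glutamine, branched-chain amino acids and taurine, 0 passed in edgeR without the block. With the block, 1 passed between the muscles, beside 0.476% of all genes. It was DBT, a subunit of the branched-chain keto acid dehydrogenase (-0.83, SE 0.14, adjusted p = 0.0268). BCAT1, a branched-chain transaminase, had -1.56 (SE 0.69, adjusted p = 0.864) in round, and ARG2, a mitochondrial arginase, had -2.55 (SE 0.96, adjusted p = 0.876) in sirloin muscle, where control calf 1 stood at 11.0 TPM and the other 7 calves at 0.362 to 1.7 TPM, and where it was -0.5 without that calf. GLS2, a glutaminase, had 0 to 8 counts a sirloin library.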

How the data were processed

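The 16 libraries were analysed from the deposited count and TPM tables. By the study's methods, reads were trimmed (Trimmomatic), freed of rRNA (SortMeRNA), aligned (HISAT2, Bowtie2) and quantified (StringTie) after rRNA and globin depletion. The submitters' processing notes instead name STAR, featureCounts and the ARS-UCD1.2 build, and the labels name poly(A) selection. Which steps made the files could not be settled, and depletion would lower globin values.

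The authors deposited raw counts per gene and TPM values, which sum to 999756 to 1000000 per library. Deposited tables of the authors' fold changes and p-values were not used. IDs were named with the RefSeq table (30762 of 34109, 90.2%), without its coordinates, as its build differs.

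Groups and replicate numbers came from the labels, and the description number joins the muscles of a calf. Deviations from group means correlated at 0.311 to 0.765 between a calf's muscles (8 pairs). Between the 2 muscles of different calves they correlated at -0.524 to 0.456 (56 pairs), which overlaps that range. Equal numbers of the 2 diets gave -0.28 to 0.29, and numbers were used to pair muscles, not diets. Without the block, the fit of 16 libraries treats a calf's muscles as independent.

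Tests used edgeR 4.0.16 in R 4.3.3 (TMM, glmQLFTest, genes with at least 1 count in any library of the fit, two-sided, Benjamini-Hochberg over all genes, threshold 0.05), with DESeq2 1.42.0, limma-voom (limma 3.58.1), other scalings, filterByExpr, blocks and leaving out calves as alternatives. Scripts were tested on simulated data. Correlations used log2 CPM (prior count 2) and exact two-sided permutations. The 10 genes and the gene lists were chosen with earlier results of these data known. By rule, the text names the 10 genes, LOC617141, list genes past an adjusted threshold or up to 4 per list and muscle with the smallest diet p under 0.05, and the 5 genes most like SLC1A5. Genes SLC7A13 and SLC25A18 of the lists were not matched.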

Additional observations from a re-analysis of the deposited data

Results flagged for a closer look

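In each of 40 groups of 4 libraries (10 genes, 4 groups) on the log2 CPM scale, the gap of the highest or lowest library to its neighbour was divided by the range of the group and set against Dixon's critical value. This picked out 2 groups, and chance alone picks about 1 in 20. For SLC38A2 in treated round muscle, calf 1 (61.8 TPM) lay far below the other 3 (137 to 151 TPM), with a gap ratio of 0.887. For SLC38A4 in control sirloin muscle, calf 2 (19.8 TPM) lay far above the other 3 (4.71 to 5.16 TPM), with a gap ratio of 0.93. Without these calves, the log2 diet difference of SLC38A2 in round muscle went from -0.16 to 0.0481, and that of SLC38A4 in sirloin muscle from -0.73 to 0.0318, with neither called.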

How the results depend on the processing

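Over all genes, edgeR, DESeq2 and limma-voom called 4, 45 and 1 between the diets in round muscle, 2, 13 and 0 in sirloin muscle, and 14, 84 and 21 between the muscles, where the calf block called 109. Among the 10 transporters, DESeq2 called 1 in round muscle, SLC1A5, which that contrast chose, and 2 between the muscles, the calf block called 2 between the muscles, and leaving out 1 calf gave 0 to 1 there and 0 to 1 correlated genes. The replicate block changed no other call of a transporter. It turned SLC38A1 in sirloin muscle to -0.0111. The r of SLC3A2 was -0.00598 on log2(TPM + 0.1), and without the 2 farthest calves r was -0.466 for SLC7A5 and -0.118 for SLC7A1. Causes were not tested. Without 1 calf, uncalled diet differences turned sign in round muscle for SLC3A2 (-0.43 to 0.11), SLC7A5 (-1.04 to 0.12), SLC7A8 (-1.21 to 0.0491), SLC38A2 (-0.31 to 0.0481), SLC38A4 (-0.23 to 0.68), SLC7A1 (-0.57 to 0.1) and SLC6A6 (-0.6 to 0.8). In sirloin muscle they did so for SLC1A5 (-0.16 to 0.41), SLC3A2 (-0.29 to 0.13), SLC38A1 (-0.6 to 0.69), SLC38A2 (-0.35 to 0.0139), SLC38A4 (-1.3 to 0.0318), SLC7A1 (-0.33 to 0.0948) and SLC6A6 (-0.7 to 0.36). Between the muscles SLC38A4 turned (-0.0865 to 0.5), and the r of SLC7A1 ran from -0.204 to 0.76. With 4 calves a group, the SEs of the transporters' diet differences were 0.25 to 0.81, and SLC6A6 had the fewest counts (29 to 214 a library).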
